A study of Mus musculus with 221 samples.

Results

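Dab1, Reln, Vldlr, Lrp8, Cdk5, Cdk5r1, Pafah1b1, Ndel1, Rnd2 and Rnd3 are 10 genes of neuronal migration that were picked by name, 10 of the 23244 features in the table. They were followed in 221 single cells from medial neocortex, taken at E18.5 from embryos of C57BL/6J mice. Of these, 99 cells belonged to the second of 2 independent pools, each made of 8 neocortices, and the rest to the first. All animals were untreated and no group carried a mutation or agent. Per the labels the animals were female, yet Y-linked transcripts (Ddx3y, Eif2s3y, Kdm5d or Uty) were detected in 99 of the 221 cells, and 19 cells held both Xist and a Y-linked transcript.

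Reelin, encoded by Reln, is a secreted glycoprotein that in the developing cortex comes mainly from Cajal-Retzius cells and later also from interneurons. It binds the receptors Vldlr and Lrp8 (ApoER2) on migrating neurons, and the adaptor Dab1 is then phosphorylated by Src family kinases. Cdk5 with its activator p35 (Cdk5r1), the dynein regulator Lis1 (Pafah1b1) with its partner Ndel1, and the small GTP-binding proteins Rnd2 and Rnd3, which lower RhoA signalling, act in the movement and shape of the same neurons. In the mouse cortex Rnd2 is a known target of the proneural factor Neurog2.

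Cells were sorted into classes by marker transcripts, in this order. Interneurons had at least 3 of 8 GABAergic markers at 10 TPM or more, Eomes-positive cells had Eomes above the floor, and newborn neurons had Neurod1 at 10 TPM or more. Radial glia, the neural stem cells, had at least 5 of 8 glial markers at 10 TPM, and other neurons had at least 3 of 6 neuronal markers. TPM is the share of a transcript per length, scaled to a fixed total per cell. The floor is the lowest value of a cell (1.33 to 2.998 TPM), shared by all features without signal, and a gene counts as detected above it.

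This gave 49 newborn neurons (26 from pool 1 and 23 from pool 2), 33 Eomes-positive cells (17 and 16), 30 interneurons (17 and 13), 18 radial glia (10 and 8) and 91 other neurons (52 and 39). Genes above the floor had medians of 4037 in newborn neurons, 4279 in Eomes-positive cells, 3555 in interneurons, 4487 in radial glia and 4022 in other neurons. The Eomes-positive class was mixed. Of its 33 cells, 14 also passed the radial glia gate, 15 had Neurod1 at 10 TPM or more, and 31 had the neuronal gene Neurod6 at 100 TPM or more. Neurod6 also reached 100 TPM in 16 of 30 interneurons and 10 of 18 radial glia, and no doublet caller was run. At least 3 of 4 microglial markers were detected in 1 Eomes-positive cell, and at least 3 of 4 markers of oligodendrocyte precursors in 1 Eomes-positive cell and 1 of the radial glia. All 3 red blood markers in the table were detected in 2 newborn neurons, 1 of the interneurons and 2 other neurons. No cell reached 3 markers of vessel or meningeal cells, or 3 of 6 markers of Cajal-Retzius cells. The Rnd3 and Dab1 calls given below held without the cells with markers of other types, without those with red blood markers and without the cells with both Xist and a Y-linked transcript.

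The results turn mainly on Rnd3 (chr2:51130438-51149111, minus strand, GRCm38) and Dab1 (chr4:103619359-104744844, plus strand). Their promoters are shown because Neurog2, a factor that binds E-box motifs (CANNTG), was the other gene called with Rnd3. RefSeq promoters were at hand for 7 of the 10 genes, in 11 windows of 250 bases before a transcript start (GRCm38.p6). None was at hand for Rnd2, the known Neurog2 target, or for Cdk5 and Cdk5r1. The windows are chr2:51149112-51149361 for Rnd3 and, for 2 starts of Dab1, chr4:103619250-103619499 and chr4:104367288-104367537. Capitals mark CANNTG, a pattern that reads the same on both strands.
Rnd3: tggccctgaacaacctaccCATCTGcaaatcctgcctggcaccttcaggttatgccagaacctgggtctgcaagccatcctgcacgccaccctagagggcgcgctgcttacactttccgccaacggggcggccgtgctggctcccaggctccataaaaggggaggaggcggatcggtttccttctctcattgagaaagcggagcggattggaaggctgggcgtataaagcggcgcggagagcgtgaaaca
Dab1, upstream start: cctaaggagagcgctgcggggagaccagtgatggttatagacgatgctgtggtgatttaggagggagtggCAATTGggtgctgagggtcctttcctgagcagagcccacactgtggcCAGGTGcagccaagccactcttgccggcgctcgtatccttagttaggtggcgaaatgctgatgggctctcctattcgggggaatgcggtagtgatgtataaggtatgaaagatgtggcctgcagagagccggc
Dab1, downstream start: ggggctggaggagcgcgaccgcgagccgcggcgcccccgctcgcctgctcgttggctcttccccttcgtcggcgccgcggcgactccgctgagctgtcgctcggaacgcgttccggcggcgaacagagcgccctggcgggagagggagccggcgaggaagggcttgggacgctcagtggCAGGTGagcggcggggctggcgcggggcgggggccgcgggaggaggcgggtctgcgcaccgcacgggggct

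The Rnd3 window held 1 match, CATCTG, 231 bases upstream of the start. Of all 32851 RefSeq windows of this length, 14.4% held CATCTG or its complement CAGATG. The Dab1 windows held CAATTG at 180 and CAGGTG at 133 bases upstream of the first start, and CAGGTG at 71 bases upstream of the second. CAGGTG or CACCTG stood in 17.2% of all windows, and any CANNTG, which includes both of these motifs, in 66.2%. These matches were not particular to Rnd3 and Dab1. Windows of Lrp8, which was called in no comparison, held CAGATG at 56 and CATCTG at 44 bases upstream of different starts. They also held CAGGTG at 81 and 215 bases. A window of Vldlr and those of Ndel1 and Reln held other CANNTG matches, and that of Pafah1b1 held none. A match describes the letters and is not a binding site.

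Each class was summarised as the mean log2(TPM + 1) per pool, so n = 2 pools, and classes were compared with limma over 10723 genes. Calls needed a Benjamini-Hochberg adjusted p below 0.05 together with a log2 difference of 1 or more in size. All 10 genes passed the filter of 10 cells above the floor, Reln with 11 cells as the lowest. Cells of 1 pool share their animals and are not independent, and shares of cells carry exact (Clopper-Pearson) 95% intervals. Where no cell had a gene, the limit given is 3 cells of the number examined. Intervals and limits cover counting error only.

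Rnd3, a GTPase-deficient protein that antagonises RhoA, set Eomes-positive cells apart from other neurons. It was detected in 24 of 33 Eomes-positive cells (72.7%, interval 54.5 to 86.7%), against 10 of 91 other neurons (11%, 5.40 to 19.3%). Its mean level was 6.43 in pool 1 and 5.37 in pool 2 on the log2(TPM + 1) scale in Eomes-positive cells, against 1.93 and 1.72 in other neurons. The pools did not overlap between these classes. Eomes-positive cells ran up to 772 TPM with a median of 177 TPM, and other neurons up to 204 TPM with a median at the floor (1.85 TPM). The log2 difference was 4.07 ± 0.51 (SE, limma adjusted p = 0.00793), and Rnd3 ranked first by p among all genes tested. It was 1 of the 10 genes called here, while 0.0187% of all genes were called higher, 2 genes in all, Rnd3 and Neurog2. The call was lost with the log2 of the mean TPM (adjusted p = 0.0688), with pool and name suffix as units (0.176) and with newborn neurons limited to Neurod1 of 100 TPM or more (0.103). It was also lost without the interneurons and radial glia with Neurod6 of 100 TPM or more (adjusted p = 0.66). The difference itself was 3.70 with pool and suffix as units, 4.50 with the log2 of the mean, and by construction the same in both fits that changed only other classes, since all classes share the estimate of the spread.

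In the remaining classes Rnd3 was detected in 14 of 49 newborn neurons (28.6%), 7 of 30 interneurons (23.3%) and 7 of 18 radial glia (38.9%). The mean level was 2.88 ± 0.02 in newborn neurons, 2.83 ± 0.32 in interneurons and 3.29 ± 0.21 in radial glia (SD, n = 2 pools), against 1.82 ± 0.14 in other neurons. The order of means ran from Eomes-positive cells through radial glia, newborn neurons and interneurons to other neurons, and newborn neurons and interneurons were the neighbours whose pools overlapped. The single highest cell (1393 TPM) was an interneuron with Neurod6 under 100 TPM. Newborn neurons had a log2 difference of -3.01 ± 0.51 from Eomes-positive cells, which did not pass (limma adjusted p = 0.0923) but did with profiles weighted by cells (-3.03 ± 0.50, adjusted p = 0.0137). They differed from other neurons by 1.06 ± 0.51 (adjusted p = 1.0), interneurons by 1.01 ± 0.51 (adjusted p = 0.739) and radial glia by 1.47 ± 0.51 (adjusted p = 0.114).

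**Figure D1:**
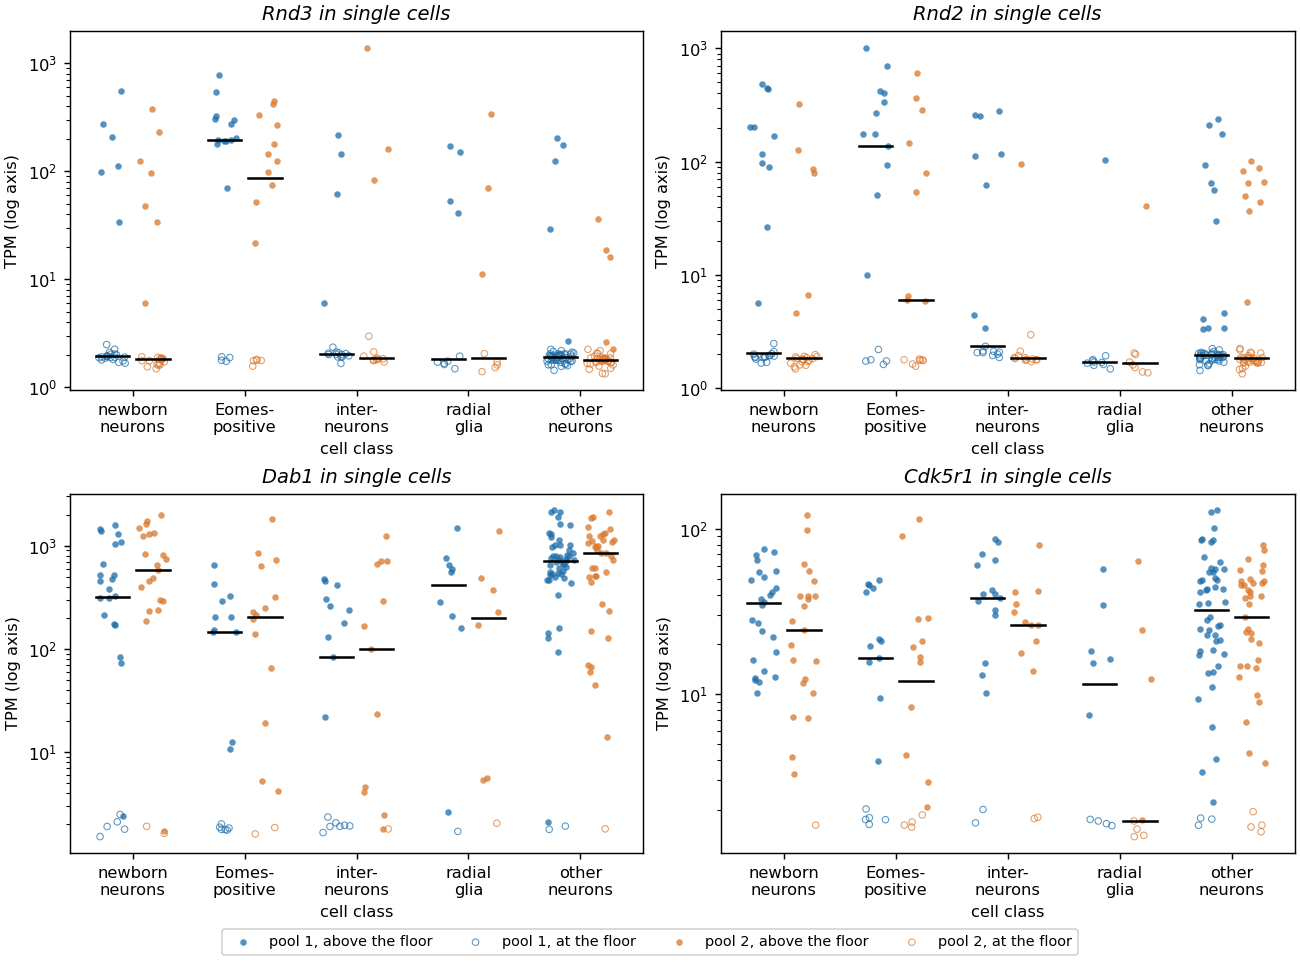
Level of Rnd3, Rnd2, Dab1 and Cdk5r1 in each of the 221 cells (TPM, log axis), by cell class and pool. Points are cells, open points lie at the floor, and black lines are medians of a class in a pool. The Rnd3 medians are 193 and 86.8 TPM in Eomes-positive cells of pools 1 and 2 and at the floor in the other classes, and the Dab1 medians are highest in other neurons (709 and 849 TPM).

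Rnd2, the related protein that promotes radial migration in the mouse cortex, was detected in 21 of 33 Eomes-positive cells (63.6%, 45.1 to 79.6%), against 21 of 91 other neurons (23.1%, 14.9 to 33.1%). The mean level was 5.79 in pool 1 and 3.99 in pool 2 in Eomes-positive cells, against 2.28 and 2.44 in other neurons. The pool means did not overlap between these classes, but the pools of Eomes-positive cells lay far apart. Single cells overlapped, from 1.57 to 1016 TPM in Eomes-positive cells and from 1.34 to 237 TPM in other neurons. The log2 difference of 2.53 ± 0.67 was not called (limma adjusted p = 0.218). It passed in 1 of 17 alternatives, with profiles weighted by their number of cells (2.57 ± 0.54, adjusted p = 0.0166). Within Eomes-positive cells of pool 2, 0 of the 4 cells with name suffix B had Rnd2, and what the suffix marks is not in the labels. The same 4 cells had Rnd3 in 1 and Neurog2 in 1, against 10 and 8 of the 12 cells with suffix A. Their mean level on the log2 scale was 2.85 for Rnd3 and 9.02 for Dab1, against 6.21 for Rnd3 and 5.69 for Dab1 in the cells with suffix A.

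Newborn neurons had Rnd2 in 17 of 49 cells (34.7%), interneurons in 9 of 30 and radial glia in 2 of 18 (11.1%). The interneurons differed by pool, with 8 of 17 cells in pool 1 and 1 of 13 in pool 2. Newborn neurons differed from other neurons by 0.83 ± 0.67 (adjusted p = 1.0) and from Eomes-positive cells by -1.70 ± 0.67 (adjusted p = 0.506). Near its 5′ end an exon of Rnd2 (chr11:101464999-101471853, plus strand) shares 226 bases with an exon of Vat1 on the other strand, and the kit does not mark strand, so reads there cannot be told apart. Vat1 itself was detected in 12 of 49 newborn neurons, 9 of 33 Eomes-positive cells, 6 of 30 interneurons, 0 of 18 radial glia (which allows a share of up to 16.7%) and 13 of 91 other neurons, with means of 1.68 to 8.52 TPM.

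Rnd2 and Rnd3 were often found in the same Eomes-positive cell. Both were detected in 18 of 33 Eomes-positive cells (54.5%, 36.4 to 71.9%), 9 of 17 in pool 1 and 9 of 16 in pool 2. The count was 9 of 49 newborn neurons (18.4%), 2 of 30 interneurons (6.67%), 2 of 18 radial glia (11.1%) and 4 of 91 other neurons (4.40%, 1.21 to 10.9%). In Eomes-positive cells 6 had Rnd3 alone, 3 had Rnd2 alone and 6 had neither. Counted singly, Rnd3 was in 24 and Rnd2 in 21 of these 33 cells. Whether they shared cells beyond these single shares was not tested. Over all 221 cells the correlation of both genes was r = 0.41, and the cells share their pools and their class.

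**Figure D2:**
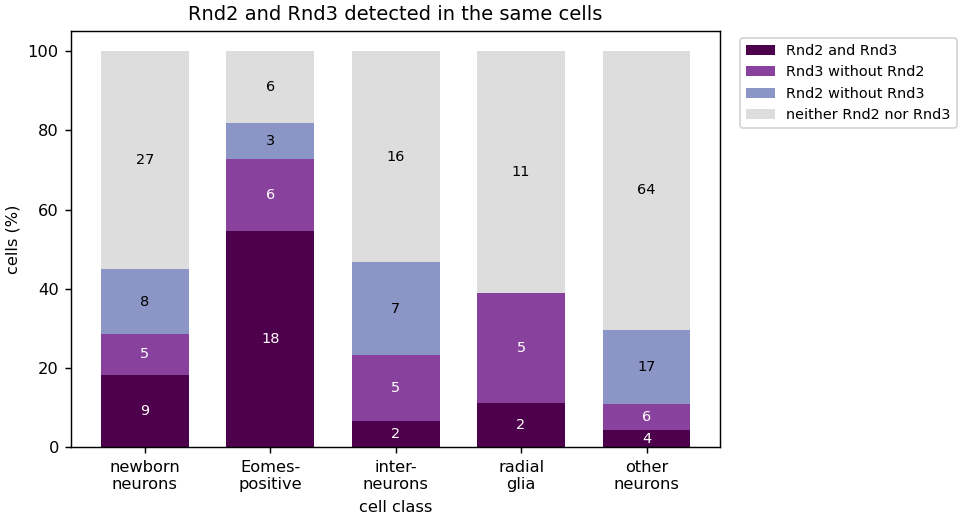
Share of cells (%) of each class in which Rnd2 and Rnd3 were both detected, 1 of them, or neither; numbers in the bars count cells. Both were detected in 18 of 33 Eomes-positive cells, against 4 of 91 other neurons.

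Rnd2 and Rnd3 were also counted in subsets of these classes. Rnd2 was detected in 6 of 14 Eomes-positive cells that passed the radial glia gate and in 15 of 19 that did not. Rnd3 was detected in 10 of 14 and 14 of 19 of these cells, and Neurog2 in 10 of 14 and 9 of 19. Among newborn neurons, Rnd2 was present in 9 of 16 cells with Neurod1 of 100 TPM or more and 8 of 33 cells under it. Rnd3 was present in 8 of 16 and 6 of 33 of the same cells. These splits rest on few cells and carry no test.

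Dab1, the intracellular adaptor that relays Reelin binding, was the most widely detected of the 10 genes, in 193 of 221 cells. Its level was lower in interneurons than in other neurons. The mean was 5.12 in pool 1 and 5.77 in pool 2 in interneurons, against 8.99 and 8.89 in other neurons. The pools did not overlap, and the log2 difference was -3.49 ± 0.59 (SE, limma adjusted p = 0.00731). Within pool 2 the mean was 7.76 in 5 interneurons against 8.26 in 12 other neurons with name suffix B. With suffix A it was 4.53 in 8 interneurons against 9.17 in 27 other neurons. In pool 1 the means were 3.17 against 8.35 with suffix A and 5.54 against 9.67 with suffix B. The call held with pool and suffix as units (-3.61, limma adjusted p = 0.0402). Dab1 was the 1 gene of the 10 called in this comparison, where 0.242% of all genes were called lower and 0.373% higher. Interneurons had a median of 91.3 TPM and a highest cell at 1230 TPM, against a median of 728 TPM and a highest cell at 2197 TPM in other neurons. Detection was 22 of 30 interneurons (73.3%, 54.1 to 87.7%), against 88 of 91 other neurons (96.7%, 90.7 to 99.3%).

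Dab1 went with Neurod6 inside the interneuron class. The 16 interneurons with Neurod6 at 100 TPM or more had Dab1 in 13 cells (median 210 TPM), and the 14 under it had Dab1 in 9 cells (median 4.37 TPM). The median cell had 3782 genes above its floor in the first group and 3225 in the second. The part of depth in this was not tested. Without the interneurons and radial glia high in Neurod6, the difference from other neurons was -4.71 ± 0.64 (adjusted p = 0.0238); the part of neuronal RNA from other cells was not tested. The call was lost with the log2 of the mean TPM, where the difference was -1.90 (adjusted p = 0.0915), and without the Eomes or Neurod1 cells with radial glia markers. There the difference was the same by construction, -3.49, with an SE of 0.85 (adjusted p = 0.13).

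Eomes-positive cells also had low Dab1 values, with means of 5.18 in pool 1 and 6.52 in pool 2, below both pools of other neurons. The log2 difference of -3.09 ± 0.59 ranked 12th by p among all genes and was not called (limma adjusted p = 0.0843). With profiles weighted by cells it passed (-3.12, adjusted p = 0.00206). Radial glia differed from other neurons by -2.09 ± 0.59, short of a call (adjusted p = 0.0511). Quantile normalization (-2.14, adjusted p = 0.0402) and leaving out the interneurons and radial glia high in Neurod6 (-2.66, adjusted p = 0.0328) brought that value past the threshold.

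Newborn neurons lay between Eomes-positive cells and other neurons in Dab1. Their mean was 7.13 in pool 1 and 8.34 in pool 2, and the difference was 1.89 ± 0.59 from Eomes-positive cells (adjusted p = 0.352) and -1.20 ± 0.59 from other neurons (adjusted p = 1.0). The 16 newborn neurons with Neurod1 of 100 TPM or more had a Dab1 median of 227 TPM, and the 33 under it one of 579 TPM. Over the means of all classes, other neurons stood above newborn neurons without overlap, and newborn neurons, radial glia, Eomes-positive cells and interneurons each overlapped with the next.

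**Figure D3:**
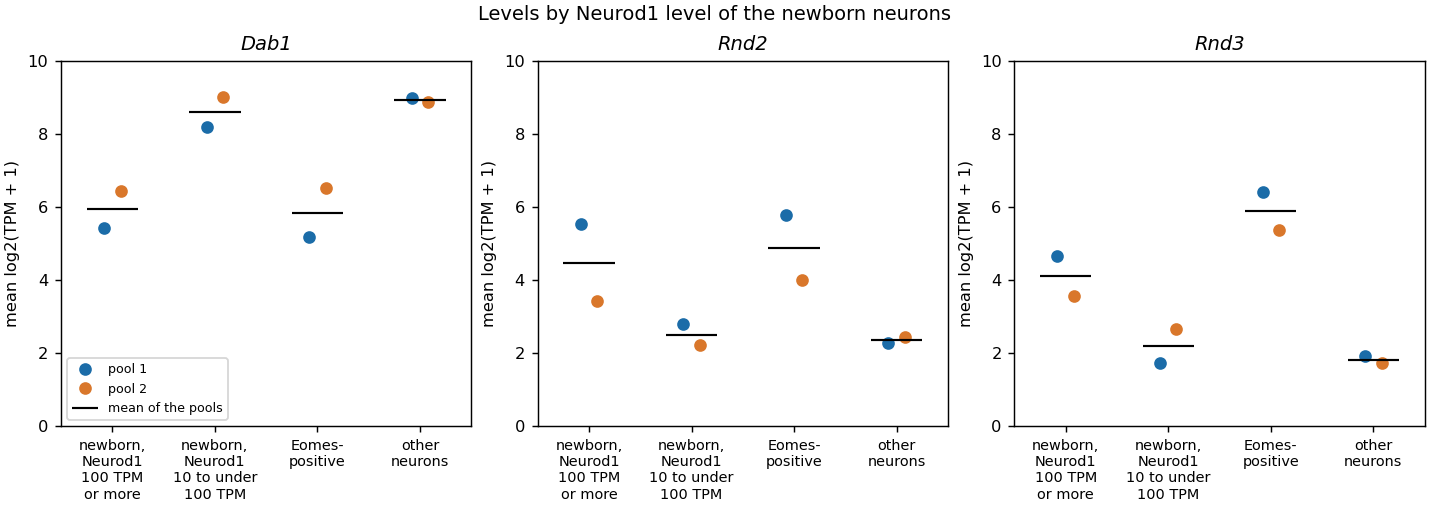
Mean log2(TPM + 1) of Dab1, Rnd2 and Rnd3 per pool (points) and over both pools (lines) in newborn neurons with Neurod1 of 100 TPM or more, newborn neurons with Neurod1 of 10 to under 100 TPM, Eomes-positive cells and other neurons. Newborn neurons high in Neurod1 lie at 5.44 and 6.43 for Dab1, against 8.19 and 9.01 in those with less Neurod1.

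Reln, the ligand, was rarely detected. It was detected in 11 of 221 cells, with 75.6 TPM as the highest value, in a newborn neuron of pool 2. By class it was found in 2 of 49 newborn neurons, 1 of 33 Eomes-positive cells, 4 of 30 interneurons (13.3%, 3.76 to 30.7%), 0 of 18 radial glia (which allows a share of up to 16.7%) and 4 of 91 other neurons (4.40%). The interneurons with Reln had 59.4, 24.2 and 9.28 TPM in pool 1 and 21.9 TPM in pool 2. Of these 4 cells, 3 also held Lhx6, a factor of interneurons from the medial ganglionic eminence. Lhx6 is itself a GABAergic marker of the interneuron gate, and it was detected in 20 of all 30 interneurons. Whether Reln went with Lhx6 inside this class was not tested. No cell with Reln had more than 1 of the 6 Cajal-Retzius markers. None of the Reln differences was called, the largest being 0.36 ± 0.16 in interneurons against other neurons (limma adjusted p = 0.664). Exons of an antisense gene overlap Reln, and the kit does not mark strand.

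Of the receptors, Lrp8 was found in more cells than Vldlr in every class, but not in every pool of a class, since in pool 2 both were in 5 of 13 interneurons and radial glia had Lrp8 in 0 and Vldlr in 3 of 8 cells. Lrp8 was detected in 27 of 49 newborn neurons (55.1%), 26 of 33 Eomes-positive cells (78.8%), 14 of 30 interneurons (46.7%), 9 of 18 radial glia and 60 of 91 other neurons (65.9%). Vldlr was detected in 12 of 49 newborn neurons (24.5%), 2 of 33 Eomes-positive cells (6.06%, 0.743 to 20.2%), 9 of 30 interneurons, 4 of 18 radial glia (22.2%) and 20 of 91 other neurons (22%, 14 to 31.9%). Neither receptor was called in any comparison.

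The Lrp8 difference of Eomes-positive cells from other neurons was 0.89 ± 0.81 (limma adjusted p = 0.83), and that of Vldlr was -0.34 ± 0.38 (adjusted p = 0.88). Interneurons had the highest Vldlr mean, 28.3 ± 7.05 TPM, against 6.95 ± 0.81 TPM in other neurons (SD, n = 2 pools), and the log2 difference of 0.75 ± 0.38 did not pass (adjusted p = 0.748). This mean rested on few cells, with a median at the floor (2.03 TPM) and 1 cell at 376 TPM, without which the mean over the interneurons was 16.99 TPM, against 28.97 TPM over all 30. In radial glia Lrp8 was split by pool, with 9 of 10 cells in pool 1 and 0 of 8 cells in pool 2, which allows a share of up to 37.5%. In pool 1 the median radial glial cell had 4740 genes above its floor, and in pool 2 it had 4036; the part of depth in this split was not tested.

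Dab1 and at least 1 receptor were detected together in 31 of 49 newborn neurons (63.3%), 19 of 33 Eomes-positive cells (57.6%), 15 of 30 interneurons, 10 of 18 radial glia (55.6%) and 65 of 91 other neurons (71.4%). The 95% intervals of these shares overlap. Over all cells, 140 of 221 held this pair (63.3%), while both receptors were found in 25 of 221 cells (11.3%).

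**Figure D4:**
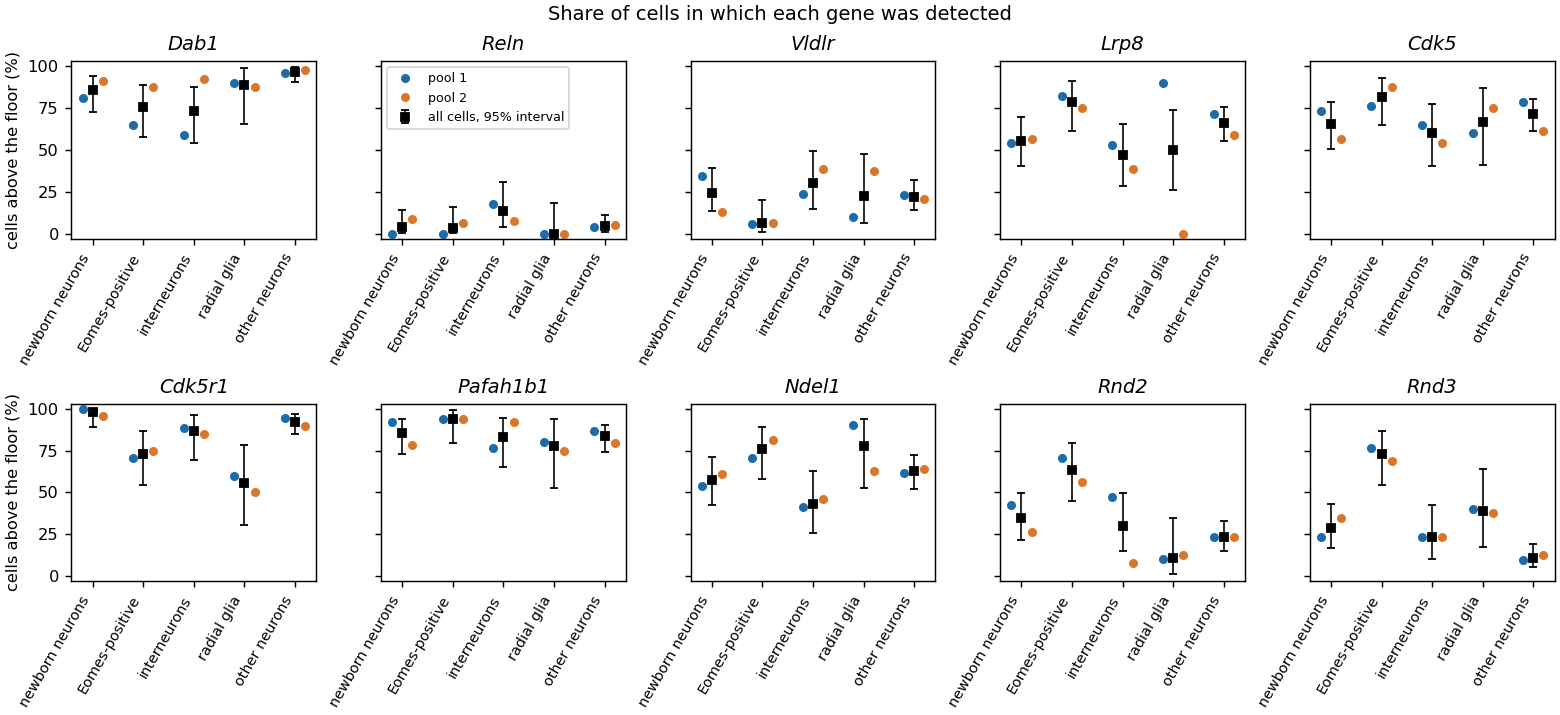
Share of cells (%) in which each of the 10 genes was detected, by class. Squares are all cells of a class with the exact 95% interval, and coloured points are the pools. Rnd3 reaches 72.7% in Eomes-positive cells and 11% in other neurons, Reln stays at or below 13.3% in every class, and Lrp8 in radial glia is split between the pools.

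Cdk5r1 encodes p35, an activator of Cdk5 kinase in neurons, and its share of cells ranged widely between classes. It was detected in 48 of 49 newborn neurons (98%), 24 of 33 Eomes-positive cells (72.7%), 26 of 30 interneurons (86.7%), 10 of 18 radial glia (55.6%, 30.8 to 78.5%) and 84 of 91 other neurons (92.3%, 84.8 to 96.9%). Its mean was 3.22 in pool 1 and 2.65 in pool 2 in radial glia, against 4.79 and 4.49 in other neurons, without overlap. The log2 difference of -1.70 ± 0.53 was not called (limma adjusted p = 0.0773). None of the 10 genes was called in radial glia, where 5.42% of all genes were (4.2% higher and 1.22% lower).

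The radial glia with Cdk5r1 were mostly those with Neurod6, since 9 of 10 with Neurod6 at 100 TPM or more had it, and 1 of 8 under it. Without the interneurons and radial glia high in Neurod6, the difference from other neurons was -3.26 (adjusted p = 0.011), with 3 and 5 radial glia left in pools 1 and 2. Quantile normalization also brought it past the threshold (-1.88, adjusted p = 0.0379). Eomes-positive cells had means of 3.66 and 3.44, below both pools of other neurons, with a difference of -1.08 ± 0.53 (adjusted p = 0.595). Newborn neurons differed from Eomes-positive cells by 1.15 ± 0.53 (adjusted p = 0.569) and from other neurons by 0.07 ± 0.53 (adjusted p = 1.0).

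Cdk5 itself, the kinase, was not called in any comparison. It was detected in 32 of 49 newborn neurons, 27 of 33 Eomes-positive cells, 18 of 30 interneurons, 12 of 18 radial glia and 65 of 91 other neurons, and the class means were between 106.8 ± 14.9 TPM in newborn neurons and 135 ± 13.4 TPM in interneurons (SD, n = 2 pools). Its log2 differences were 0.61 ± 0.57 in Eomes-positive cells, -0.35 ± 0.57 in newborn neurons, -0.40 ± 0.57 in interneurons and -0.12 ± 0.57 in radial glia against other neurons. None of these passed, which at this SE does not show that the classes were alike. Cdk5 and Cdk5r1 were detected together in 32 of 49 newborn neurons (65.3%), 21 of 33 Eomes-positive cells (63.6%), 15 of 30 interneurons, 7 of 18 radial glia (38.9%) and 60 of 91 other neurons (65.9%).

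Pafah1b1, whose product Lis1 regulates the motor dynein and whose loss causes lissencephaly in humans, was found in 77.8% to 93.9% of cells of every class. Many of these values were low. At 10 TPM or more it was found in 27 of 49 newborn neurons, 20 of 33 Eomes-positive cells and 13 of 30 interneurons. That limit left it in 11 of 18 radial glia and 47 of 91 other neurons. Its mean level was 3.80 ± 0.85 in newborn neurons, 4.10 ± 0.31 in Eomes-positive cells, 3.93 ± 0.19 in interneurons, 3.94 ± 0.07 in radial glia and 3.78 ± 0.33 in other neurons (SD, n = 2 pools). All neighbours in this order overlapped. Ndel1, which links Lis1 to dynein, was detected in 28 of 49 newborn neurons (57.1%), 25 of 33 Eomes-positive cells (75.8%), 13 of 30 interneurons (43.3%), 14 of 18 radial glia (77.8%) and 57 of 91 other neurons (62.6%). Its difference from other neurons was 0.998 ± 0.645 in Eomes-positive cells (adjusted p = 0.72) and -0.85 ± 0.65 in interneurons (adjusted p = 0.917). The pair was detected together in 26 of 49 newborn neurons, 23 of 33 Eomes-positive cells, 11 of 30 interneurons, 11 of 18 radial glia and 48 of 91 other neurons.

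**Figure D5:**
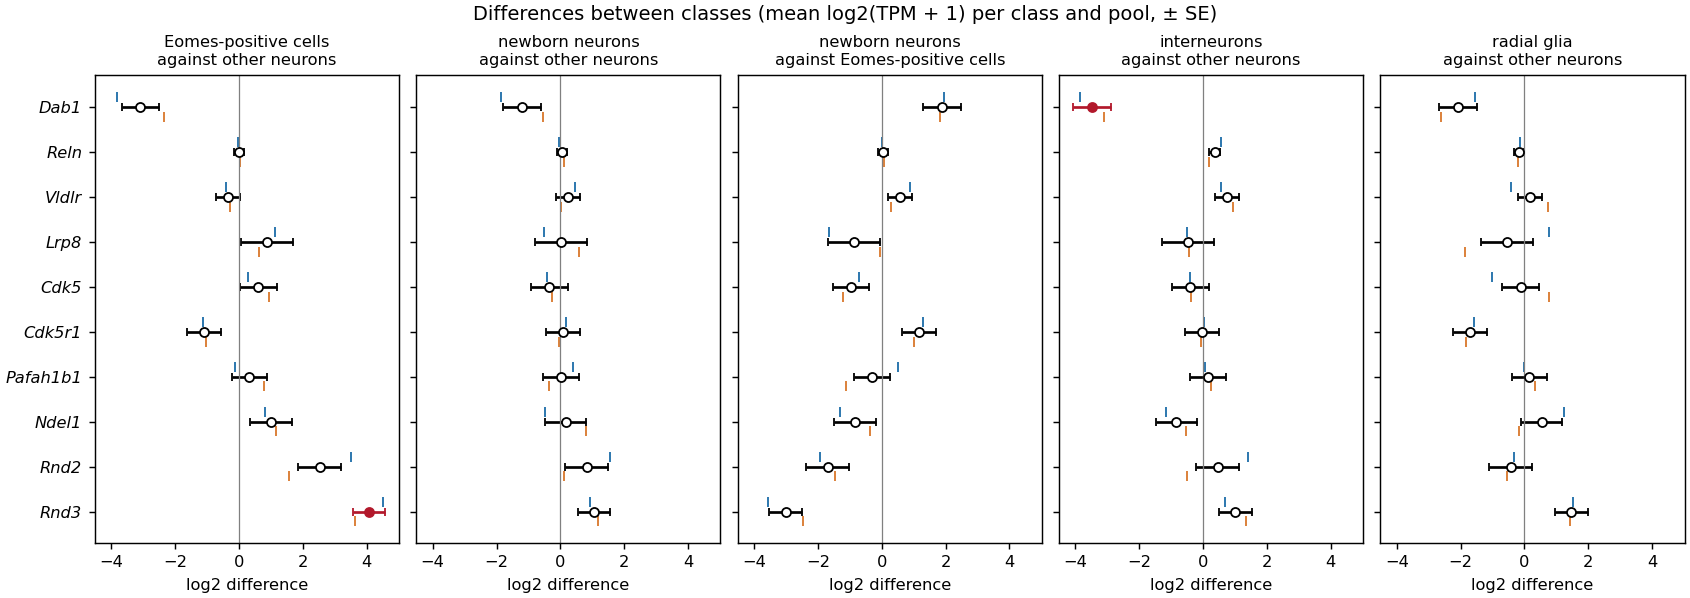
Log2 difference of each gene in the 5 comparisons (points with SE from limma on mean log2(TPM + 1) per class and pool, n = 2 pools); ticks are the differences within pool 1 (blue, above) and pool 2 (orange, below), and filled red points were called. Rnd3 in Eomes-positive cells (4.07) and Dab1 in interneurons (-3.49) are the only red points.

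Over the 10 genes, the median log2 difference was 0.47 in Eomes-positive cells against other neurons, beside 0.10 over all genes tested. It was 0.06 in newborn neurons against other neurons (all genes 0.03), -0.57 in newborn neurons against Eomes-positive cells (all genes -0.08), 0.06 in interneurons (all genes -0.02) and -0.15 in radial glia (all genes -0.01) against other neurons. Newborn neurons had none of the 10 genes called against other neurons, where limma called 0 of 10723 genes and 90 had an unadjusted p below 0.05. None was called against Eomes-positive cells either, where 0.0187% of all genes were. The comparisons share their classes and are not independent of each other.

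Neurog2, the proneural factor upstream of Rnd2 in the mouse cortex, was the other gene called in Eomes-positive cells. It was detected in 19 of 33 Eomes-positive cells (57.6%), against 20 of 91 other neurons (22%). The mean was 5.01 in pool 1 and 4.69 in pool 2 in Eomes-positive cells, against 2.12 and 2.13 in other neurons, a log2 difference of 2.72 ± 0.40 (limma adjusted p = 0.0253). Newborn neurons had means of 1.97 and 2.21 and a difference of -2.76 ± 0.40 from Eomes-positive cells (adjusted p = 0.0212). The call against other neurons held in 11 of 17 alternatives (adjusted p = 0.000427 to 0.361), and that of newborn neurons in 10 of 17 (adjusted p = 0.00336 to 0.372). Both were lost with the log2 of the mean TPM, with genes above the floor in 1 cell, with pool and suffix as units, with Neurod1 at 100 TPM, and without the interneurons and radial glia high in Neurod6. Both were also lost without the Eomes or Neurod1 cells with radial glia markers, at 1.98 (adjusted p = 0.318) in Eomes-positive cells against other neurons and -2.00 (adjusted p = 0.35) in newborn neurons against Eomes-positive cells. The newborn neuron call was lost, too, without the cells with both Xist and a Y-linked transcript (-2.80, adjusted p = 0.0541). Neurog2 and Rnd3 were detected together in 15 of 33 Eomes-positive cells and Neurog2 and Rnd2 in 13 of 33, against 3 and 4 of 91 other neurons. Each of these genes alone was also found in a larger share of Eomes-positive cells than of other neurons. Whether the pairs shared cells beyond their single shares was not tested.

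Other genes of these pathways were counted from lists. Among 15 tested genes of Rnd and RhoA signalling, Neurog2 was the 1 called in Eomes-positive cells and in newborn neurons against them, where 0.0187% of all genes were called in each. Zbtb18 (listed under its older symbol Zfp238), a repressor of Rnd2 in the mouse cortex, was the 1 called in interneurons, at -4.05 ± 0.45 (adjusted p = 0.000316), and in radial glia, at -2.75 ± 0.45 (adjusted p = 0.00258), both against other neurons. Of all genes, 0.615% were called in interneurons (0.242% lower) and 5.42% in radial glia (1.22% lower). The count of 1 of 15 rests on a single gene, and the list was not tested as a set. Zbtb18 was detected in 26 of 30 interneurons and 18 of 18 radial glia, against 91 of 91 other neurons. Rhoa, the GTPase that Rnd proteins act against, was not called in any comparison; its highest value was 1.93 in radial glia (adjusted p = 0.0592). The medians of this list were 0.17 in Eomes-positive cells, -0.21 in interneurons and -0.19 in radial glia against other neurons.

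Among 18 tested genes of Cdk5 signalling and dynein-driven nuclear movement, 1 was higher and 4 were lower in radial glia than in other neurons, and none passed in the remaining comparisons. The share of all genes called in radial glia was 4.2% upward and 1.22% downward, so the 1 of 18 higher is near the share of all genes. Nde1, the relative of Ndel1 needed for progenitor division, was higher by 2.42 ± 0.60 (adjusted p = 0.0272). The kinase Pak1, a Cdk5 substrate, was lower (-3.02 ± 0.56, adjusted p = 0.00599), as were the microtubule protein Dcx (-2.46 ± 0.53, adjusted p = 0.0129) and the dynein intermediate chain Dync1i1 (-2.13 ± 0.52, adjusted p = 0.0248). Map1b, which binds microtubules, had -1.82 ± 0.42 (adjusted p = 0.0175). The list had a median of -0.77 in radial glia, beside -0.01 over all genes.

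Among 23 tested adaptors and effectors of the Reelin pathway, only Crk was called, higher by 2.08 ± 0.54 in radial glia than in other neurons (adjusted p = 0.0353). This was 1 of 23 genes, a share near the 4.2% of all genes called higher in that comparison. Crk binds phosphorylated Dab1. Its relative Crkl and the kinases Fyn and Src, which phosphorylate Dab1, did not pass in any of the 5 comparisons. The list's median was -0.13 in radial glia and 0.13 in Eomes-positive cells against other neurons.

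The genes whose levels ran most like each member's over all 221 cells were ranked by Pearson r of log2(TPM + 1) among 9318 genes, as a description, since cells share pools, classes and depth. For Rnd3 these were Eomes (r = 0.51), Pax6 (0.49) and Nrn1 (0.48), the first and second of which are gate markers. For Rnd2 they were the somatostatin receptor Sstr2 (0.51), Pcp4 (0.47) and Rnd3 (0.41). For Dab1 they included the actin-binding thymosin Tmsb4x (0.61) and Gpm6a (0.53). For Cdk5r1 they were Basp1 (0.49), Cd24a (0.47) and Tubb3 (0.44), a gate marker. Within the 91 other neurons alone, r was 0.51 for Dab1 with Tmsb4x and 0.31 with Gpm6a. For Rnd2 it was 0.33 with Sstr2, 0.30 with Pcp4 and 0.30 with Rnd3. For Cdk5r1 it was 0.29 with Basp1, 0.28 with Cd24a and 0.04 with Tubb3. For Rnd3 it was 0.14 with Nrn1, -0.06 with Pax6 and 0.10 with Eomes, which the gate keeps at the floor in other neurons. Vldlr, Lrp8, Cdk5, Pafah1b1 and Ndel1 had no gene at r of 0.4 or more. Between Dab1 and both Rnd genes r was negative, at -0.31 with Rnd2 and -0.20 with Rnd3.

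The number of the 10 genes detected in a cell had a median of 5 in newborn neurons, 6 in Eomes-positive cells, 5 in interneurons, 5 in radial glia and 5 in other neurons, with a range of 2 to 9 over all cells. Dab1, Lrp8, Cdk5, Cdk5r1, Pafah1b1, Ndel1, Rnd2 and Rnd3 were all 8 detected in 3 of 49 newborn neurons, 4 of 33 Eomes-positive cells, 1 of 30 interneurons, 0 of 18 radial glia and 0 of 91 other neurons.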

How the data were processed

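Single cells were captured on a microfluidic chip and made into full-length, unstranded cDNA libraries, per the labels' protocols. The authors deposited TPM values, and TopHat2 2.0.14, Bowtie2 2.2.6, Cufflinks 2.2.1 and mm10 are named in the submitters' processing notes. Read numbers are not given in the sources used here, so the depth per cell is unknown; genes above the floor numbered 2146 to 6727 per cell.

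From these values, log2(TPM + 1) was averaged per class and pool (10 profiles) and fitted with limma 3.58.1 in R 4.3.3 (lmFit, eBayes with trend and robust variances), two-sided. Kept were genes that exceeded the floor in 10 cells or more, without gate markers and spike-ins. The fit was tested on simulated data. The same animals gave all classes of a pool, so pools pair them by design; their deviations correlated by -0.0091 to 0.0733 between classes over 10723 genes, and the main model has no pool term. Members, gates and lists were chosen with earlier results of these data known. Named were the 10 members, up to 4 called genes per list and comparison, and the 3 most like genes at r of at least 0.4 (1 of them is not reported here); Vat1, Crkl, Fyn, Src and Rhoa were named after their values were seen. Positions come from GENCODE M21 (GRCm38) and promoters from RefSeq. Alternatives changed the pseudocount, the scaling, the averaging, the filter, the weights, the units, the gates and the cells kept.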

Additional observations from a re-analysis of the deposited data

How the results depend on the processing

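Over the 10 genes and Neurog2 in 5 comparisons, 866 of 930 alternative values kept their direction and their side of the threshold, 19 lost a call, 7 gained one, 38 changed the sign of a value never called, and no called value changed sign. All 19 lost calls belonged to Rnd3 and Neurog2 in Eomes-positive cells, Neurog2 in newborn neurons and Dab1 in interneurons. All other differences were uncalled in the main fit. Neurog2 stayed called in 11 of 17 alternatives in Eomes-positive cells against other neurons. In newborn neurons against Eomes-positive cells it did so in 10 of 17. Rnd3 in Eomes-positive cells against other neurons stayed called in 13 of 17 alternatives (2.78 to 4.50, adjusted p = 7.05e-05 to 0.66) and Dab1 in interneurons in 15 of 17 (-4.71 to -1.90, adjusted p = 0.000129 to 0.13). With pool as a replicate block the calls numbered 2, 0, 2, 70 and 597 in the 5 comparisons, in the order of the plot of differences, and no call of a member changed. Leaving out a pool leaves no spread to test; Rnd3 in Eomes-positive cells then differed by 3.65 to 4.50 and Dab1 in interneurons by -3.87 to -3.12. No cell had 3 Cajal-Retzius markers, so leaving such cells out repeated the main fit and changed nothing. This repeat is still counted among the alternatives above.

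For Eomes-positive cells against other neurons, limma called 2 genes, against 7 with the log2 of the mean TPM, 1 with genes above the floor in 1 cell, 4 with 40 cells, 132 with weights by cells, 0 with pool and suffix as units, 0 with Neurod1 at 100 TPM, 1 without the Eomes or Neurod1 cells with radial glia markers and 0 without the cells high in Neurod6. For newborn neurons against Eomes-positive cells it called 2, against 0 with the log2 of the mean, 0 with 1 cell, 36 with weights, 0 with pool and suffix, 1 with stricter Eomes and interneuron gates, and 0 with Neurod1 at 100 TPM, without radial glia markers, without the cells high in Neurod6, or without the cells with Xist and Y-linked transcripts. Newborn neurons against other neurons gave 0, and 1 with weights. Interneurons gave 66, against 40 with the log2 of the mean, 37 with 40 cells, 178 with weights and 43 with Neurod1 at 100 TPM. Radial glia gave 581, against 258, 348 and 324 with the log2 of the mean, 40 cells and Neurod1 at 100 TPM. The cause of these shifts was not tested, other than that the strict filter tests fewer genes. Leaving out the cells high in Neurod6, with markers of other types, with red blood markers, or with Xist and Y-linked transcripts was chosen after seeing the data. At a limit of 10 TPM, 43 of 50 shares of cells stayed within their 95% interval. The rest fell below it. They were Pafah1b1 in every class but radial glia, Lrp8 in Eomes-positive cells and other neurons, and Cdk5r1 in other neurons. With 2 pools a class and unknown depth, an uncalled difference is not shown to be absent.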
